A study of Mus musculus with 20 samples.

Results

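The effect of letrozole on gene expression was measured in mouse mammary tumours whose hosts had all been given an antibody against PD-1, the inhibitory receptor of T cells. The comparison used 10 of the 20 tumours of the study: 5 from mice given letrozole + anti-PD-1 and 5 from mice given anti-PD-1 without letrozole. All 10 were grown from SSM3 cells, an oestrogen receptor-positive line of mouse mammary tumour cells, implanted into an inguinal mammary gland (the fourth) of 129S6/SvEv mice aged 2 to 4 months. Tumours had reached about 150 mm3 when treatment started. The letrozole + anti-PD-1 mice had their ovaries removed and were injected daily with 1 mg/kg letrozole for 25 days. The anti-PD-1 mice had a sham operation and daily injections of the carrier, saline with 5% ethanol. Both groups received 250 µg of anti-PD-1 on days 3, 5 and 7 after surgery. Ovariectomy and letrozole were never given apart, so their effects cannot be told apart, and "letrozole" below stands for both. The tumours come from a single transplanted line, which limits them as a model of human disease, and no tumour of this comparison lacked the antibody.

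Oestrogen acts on luminal mammary epithelium through the oestrogen receptor, a nuclear receptor that binds DNA as a dimer and recruits coactivators to enhancers and promoters. Letrozole inhibits aromatase, the enzyme that makes oestrogens from androgens, and ovariectomy removes the main source of both oestrogen and progesterone in female mice. The progesterone receptor gene is a classical target of the oestrogen receptor, and progesterone in turn acts through secreted signals on neighbouring cells.

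Members of the comparison were all genes with a deposited value of at least 10 in at least 5 of the 20 libraries, 19877 of 38996 named genes. Values are normalised counts, which are reads divided by a size factor for each library, and each gene is represented by its most abundant transcript. Total reads counted on those transcripts ran from 12495788 to 31393828 in the anti-PD-1 group and from 18204604 to 30305964 in the letrozole + anti-PD-1 group. Anti-PD-1 replicate 1 stood apart, with the fewest reads, 20992 genes detected against at least 23979 in the other 9 tumours, and 12.9% of reads on 10 genes, a share of at most 7.75% elsewhere. Luminal markers were present in all 10 tumours: Krt8, a keratin of simple epithelia, ranged from 40711 to 75222 and Esr1, which encodes the oestrogen receptor, from 4100.1 to 6708.

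A gene was called risen or fallen when its adjusted p was under 0.05 in limma. Of the 19877 genes, 213 (1.07%) were called: 95 rose (0.478%) and 118 fell (0.594%). At an unadjusted p under 0.05 there were 2674 genes (13.5%), 1348 higher (6.78%) and 1326 lower (6.67%). On recovered reads edgeR called 166 genes (0.835%) and DESeq2 532 (2.68%). The falls were larger than the rises: the median log2 change was -1.12 over the fallen and 0.73 over the risen genes, and 62 fallen genes but 28 risen genes changed at least 2-fold. The 5 values of one group lay wholly above the 5 of the other for 564 of all tested genes (2.84%) and for 172 of the 213 called. The number of calls depended on the libraries: it was 72 without anti-PD-1 replicate 4, 110 and 125 without letrozole + anti-PD-1 replicates 1 and 3, 117 (33 risen and 84 fallen) without replicate 5 of that group, and 123 without anti-PD-1 replicate 2.

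**Figure D1:**
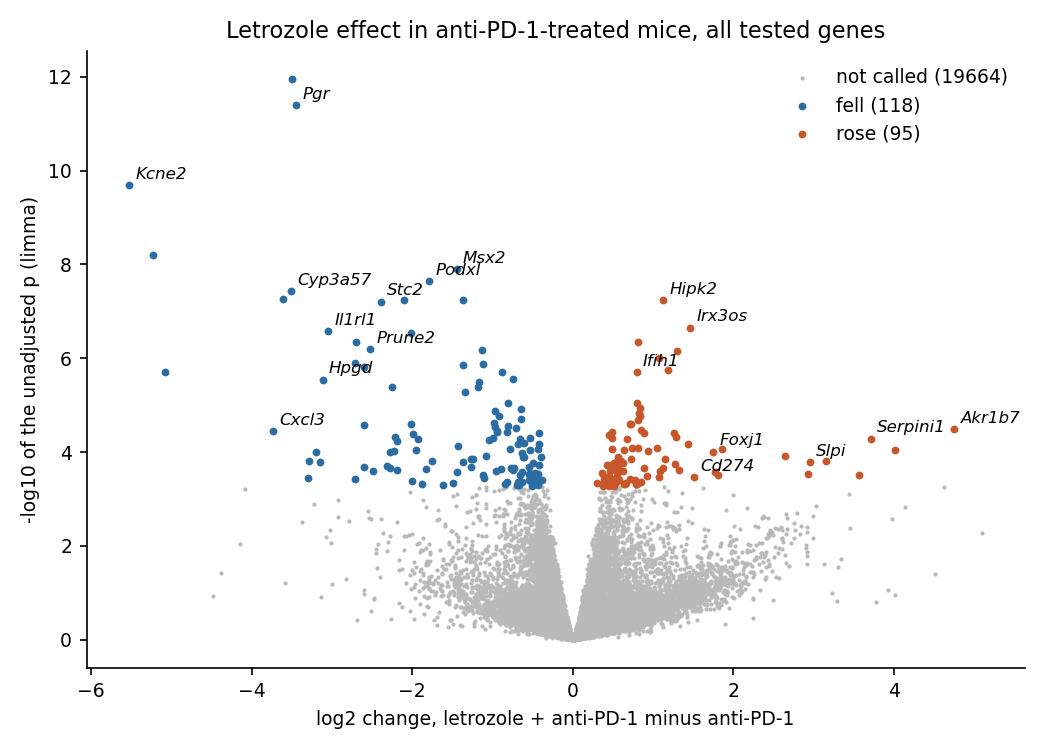
Change in all 19877 tested genes; the horizontal axis is the log2 change, letrozole + anti-PD-1 minus anti-PD-1, and the vertical axis the negative log10 of limma's unadjusted p. The 118 fallen genes (blue) reach -5.53 at Kcne2, and most of the 95 risen genes (orange) lie under a log2 change of 1.

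The progesterone receptor gene Pgr was among the genes with the smallest p. It measured 11765, 16762, 7763, 18215 and 13162 in the 5 anti-PD-1 tumours and 1618, 1439.9, 733, 1060.3 and 1324 in the 5 letrozole + anti-PD-1 tumours. Every tumour with letrozole lay below every tumour without it, and replicate 3 was the lowest tumour of each group. On the log2 scale Pgr fell by 3.44 (SE 0.24, adjusted p = 4.05e-08). Stc2, an oestrogen-induced secreted glycoprotein, measured 4575, 6016, 3562, 10243 and 4313 without and 645, 1211, 1582, 945 and 925 with letrozole, again without overlap (log2 -2.39, adjusted p = 1.02e-04). Myc, the growth-promoting transcription factor, measured 5657, 3287, 3478, 6448 and 4141 against 1981, 2223, 2853, 3364 and 2155. Its groups overlapped in 1 value on each side, and it fell by 0.85 (adjusted p = 0.0468), a call that 15 of 26 alternatives did not give (highest adjusted p = 0.167).

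These 3 were the called members among 19 tested genes of the oestrogen and progesterone response, of which 9 were higher and 10 lower on average. Limma called 1.07% of all tested genes. At an unadjusted p under 0.05, 3 of the 19 were higher and 6 lower, against 6.78% and 6.67% of all. On recovered reads edgeR called 2 of the 19 and DESeq2 7, against 0.835% and 2.68% of all. The list's median log2 change was -0.11, against 0.030 over all tested genes. The mammary paracrine gene Wnt4, a progesterone target, measured 3675, 5278, 3083, 5523 and 6437 against 1625, 2965, 1759.6, 2813 and 3101 (log2 -0.97, adjusted p = 0.105) and was not called by limma. DESeq2 on recovered reads called it (adjusted p = 0.0158). Greb1, another oestrogen target, stayed at or under 11.0 in all 10 tumours and was not tested. Aromatase itself (Cyp19a1) had a value of 0 in 9 of the 10 tumours and 0.773 in the other.

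The oestrogen receptor gene Esr1 measured 4463, 4989, 5165, 5795 and 6701 without and 4100.1, 5462, 5798, 6708 and 5348 with letrozole. The groups overlapped almost fully, with a 95% interval for the log2 change of -0.28 to 0.31 (adjusted p = 0.982). Among 14 tested hormone receptors and luminal transcription factors the paired signal transducers Stat5a and Stat5b, which act downstream of the prolactin receptor, were called. Stat5a measured 1239, 1836, 917, 2017 and 1615 against 813, 992, 771, 863 and 892 (log2 -0.76, adjusted p = 0.0324). Stat5b measured 1868, 1595, 1724, 2115 and 1943 against 1435, 1394, 1309, 1381 and 1466 and fell by less, 0.40 (SE 0.085, adjusted p = 0.0242), yet without overlap. Both calls were lost when the 10 tumours were fitted alone and in 9 and 5 of 26 alternatives in all (highest adjusted p = 0.169 and 0.139). The list's median was 0.14, with 11 members higher and 3 lower.

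**Figure D2:**
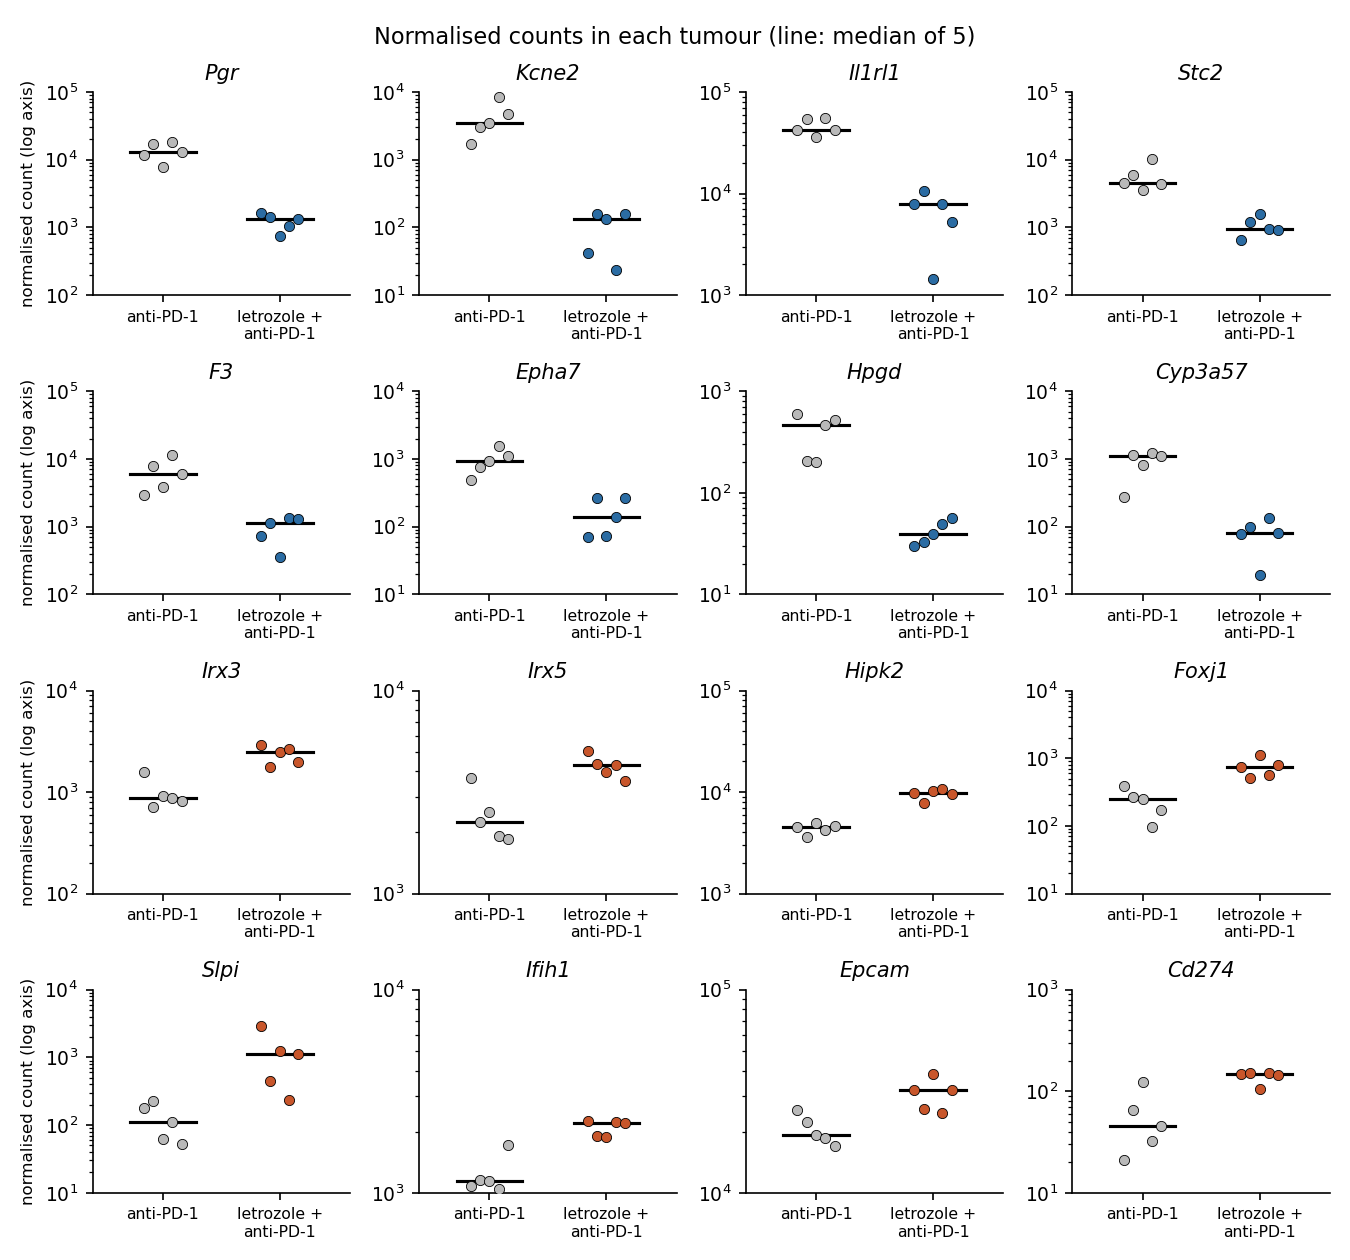
Normalised count (log axis) of 16 genes in each of the 10 tumours, anti-PD-1 in grey and letrozole + anti-PD-1 in blue where the gene fell and orange where it rose; lines are medians of 5. The first 8 genes fell without overlap between groups, while the values of Irx5, Epcam and Cd274 overlap.

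Kcne2, a regulatory subunit of voltage-gated potassium channels, had the largest fall. It measured 1703, 3005, 3428, 8556 and 4700.4 without letrozole and 41.7, 156, 131, 23.3 and 158 with it, so that the lowest value without letrozole was more than 10 times the highest with it (log2 -5.53, SE 0.48, adjusted p = 1.36e-06). Kcns3, a silent subunit that modifies other potassium channels, measured 1800.3, 1730.3, 1336, 2117 and 1232 against 495, 727, 518, 769 and 656 (log2 -1.37, adjusted p = 1.02e-04). Slc5a5, the sodium and iodide symporter of thyroid and lactating breast, measured 193, 669.8, 369, 752 and 279 against 62.6, 137, 101, 33.5 and 151 (log2 -2.21, adjusted p = 0.0141). Slc5a3, which imports the osmolyte myo-inositol, measured 7244, 11910.3, 11297, 23578 and 17868 against 2117, 2909, 4859, 2385 and 3846 (log2 -2.11, adjusted p = 1.02e-04). The water channel gene Aqp5 fell by 1.37 (adjusted p = 0.00116). None of these 5 genes overlapped between groups. The call of Slc5a5 was lost under 3 of 26 alternatives, among them leaving out anti-PD-1 replicate 4 (highest adjusted p = 0.0924).

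Il1rl1, the receptor for the alarmin interleukin-33, measured 42584, 53709.6, 36419.6, 55568 and 41952 without and 7811, 10597, 1449, 7964 and 5268 with letrozole (log2 -3.05, SE 0.41, adjusted p = 3.75e-04), and letrozole + anti-PD-1 replicate 3 was the lowest tumour. F3, tissue factor, which starts the clotting cascade, measured 2942, 7989, 3837, 11602 and 6044 against 738, 1141, 359, 1326 and 1314 (log2 -2.71, adjusted p = 0.00116). The ephrin receptor gene Epha7 measured 483, 769, 936, 1542 and 1099.9 against 69.6, 262, 72.7, 138 and 262 (log2 -2.71, adjusted p = 5.31e-04); its call was lost when the transcripts of each gene were summed (adjusted p = 0.0912). Replicate 3 with letrozole was also the lowest tumour for F3, and replicate 1 the lowest for Epha7. Podxl, the sialomucin podocalyxin, fell by 1.79 (SE 0.20, adjusted p = 7.58e-05), from a range of 4473 to 9427 down to 1565 to 3044.

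Rgs2, which shuts off G protein signalling, measured 8078, 6613, 4291, 15583 and 8188 against 879, 2133, 1049, 2162 and 2777 (log2 -2.25, adjusted p = 0.00242). Gpr155, a lysosomal membrane protein that senses cholesterol, measured 4939, 7658, 6049.7, 9297 and 12675 against 759, 4343, 528, 2529 and 2766 (log2 -2.22, adjusted p = 0.0198). In the letrozole + anti-PD-1 group replicates 1 and 3 were the lowest for Gpr155, and its call was lost without replicate 1, under 5 of 26 alternatives in all (highest adjusted p = 0.13). Cachd1, a regulator of calcium channels, fell by 2.28 (adjusted p = 0.0324), and Prune2 by 2.52 (adjusted p = 6.94e-04). For Cachd1, 8 of 26 alternatives gave no call (highest adjusted p = 0.17).

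Hpgd, which inactivates prostaglandins, measured 591, 208, 203, 465 and 519 against 30.1, 32.9, 39.4, 49.5 and 56.6 (log2 -3.12, adjusted p = 0.00183). It was the called member among 12 tested genes of prostaglandin synthesis and breakdown, 9 of them higher, with a list median of 0.15. Cyp3a57, a cytochrome P450 of the family that oxidises steroids and drugs, measured 275, 1147, 812, 1224 and 1118 against 78.8, 98.7, 19.3, 136 and 81.1 (log2 -3.51, adjusted p = 1.02e-04), and was called among 8 tested genes of steroid and drug metabolism (4 higher and 4 lower). The homeobox gene Msx2, a regulator of mammary and other epithelial development, measured 5602, 4459, 3685, 5101 and 4066 against 1417, 2000.2, 1155, 2144 and 1800.2 (log2 -1.45, SE 0.16, adjusted p = 5.02e-05). Qsox1, which forms disulphide bonds in secreted proteins, fell by 1.17 (adjusted p = 0.00196), the mitochondrial ribosome gene Mrps6 by 1.13 (adjusted p = 7.01e-04), the ubiquitin ligase subunit gene Rmnd5a by 0.88 (adjusted p = 0.00138) and Agps, an enzyme of ether lipid synthesis, by 0.74 (adjusted p = 0.00183).

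The promoters of these genes were searched for the oestrogen response element, the paired DNA motif of the oestrogen receptor, and for its half-site. The sequences below, from RefSeq (build GRCm38.p6), are the 250 bases before an annotated start, read in the gene's direction from 5′ to 3′, and show 4 strongly fallen genes with and without the half-site. Capitals mark each match to the half-site GGTCA on either strand (GGTCA or TGACC).
Pgr, chr9:8899583-8899832, plus strand: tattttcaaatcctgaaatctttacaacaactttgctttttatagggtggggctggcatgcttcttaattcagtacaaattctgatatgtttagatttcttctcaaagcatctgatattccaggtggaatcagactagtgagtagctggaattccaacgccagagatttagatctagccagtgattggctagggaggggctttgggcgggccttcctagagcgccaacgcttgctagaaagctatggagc
Kcne2, second start, chr16:92295366-92295615, plus strand: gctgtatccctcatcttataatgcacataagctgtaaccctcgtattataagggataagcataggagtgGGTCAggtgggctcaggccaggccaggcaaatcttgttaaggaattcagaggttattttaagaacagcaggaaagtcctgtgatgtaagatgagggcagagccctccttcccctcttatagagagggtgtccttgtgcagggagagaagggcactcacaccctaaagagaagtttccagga
Il1rl1, second start, chr1:40439379-40439628, plus strand: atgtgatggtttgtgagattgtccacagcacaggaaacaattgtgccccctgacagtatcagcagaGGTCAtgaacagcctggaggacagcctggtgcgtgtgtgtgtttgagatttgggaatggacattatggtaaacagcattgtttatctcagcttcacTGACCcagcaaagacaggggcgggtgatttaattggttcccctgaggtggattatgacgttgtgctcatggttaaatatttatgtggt
F3, chr3:121723287-121723536, plus strand: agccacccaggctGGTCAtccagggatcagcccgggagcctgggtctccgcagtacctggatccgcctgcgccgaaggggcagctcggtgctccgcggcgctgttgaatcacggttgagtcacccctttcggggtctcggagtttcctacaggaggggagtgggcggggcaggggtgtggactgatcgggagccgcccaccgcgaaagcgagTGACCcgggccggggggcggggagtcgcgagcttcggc
The window of Pgr held 0 half-sites, that of the second Kcne2 start 1, and those of the second Il1rl1 start and of F3 held 2 each. The first starts of Kcne2 and Il1rl1 and the windows of Stc2 and Irx3 held 0. The full element GGTCANNNTGACC, which contains the half-site on both strands, was in 0.0639% of all 32851 promoter windows of this length in the table, and in 0 of the 101 windows of fallen genes and 0 of the 102 windows of risen genes. It was in 3 of the 15483 windows of tested genes (0.0194%). At this rarity counts of 0 cannot tell the called genes from the rest. Half-sites were in 31.3% of the 83 fallen genes with an entry, 37.5% of the 80 risen genes with an entry and 37.8% of the 12180 tested genes with an entry, so the called genes did not hold them in a larger share. A match is a description of the letters, and sites farther from the start were not searched.

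The risen genes included neighbouring members of the Iroquois homeobox family, transcription factors of development. Irx3 measured 1569, 719, 921, 872 and 807 without and 2909.6, 1753, 2486, 2629.9 and 1957 with letrozole (log2 1.29, adjusted p = 7.14e-04). Its antisense transcript Irx3os measured 544, 274, 450.1, 343 and 381 against 1066, 926, 1204, 1348 and 889 (log2 1.47, adjusted p = 3.39e-04). Irx5 measured 3719, 2243, 2528, 1920.4 and 1850.5 against 5009, 4348, 3964, 4286 and 3574 (log2 0.83, adjusted p = 0.00698). In all 3, anti-PD-1 replicate 1 was the highest tumour without letrozole, and for Irx5 alone it reached above the lowest letrozole value. Hipk2, a kinase of the p53 and stress pathways, was the risen gene with the smallest p, at 4566, 3619, 4971, 4263 and 4650.5 against 9819.6, 7763, 10192, 10736 and 9522 (log2 1.12, SE 0.14, adjusted p = 1.02e-04).

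Foxj1, the regulator of motile cilia, measured 385, 265, 249.9, 95.2 and 174 against 747, 504, 1101, 567 and 794 (log2 1.75, adjusted p = 0.0204). It was the called member among 10 tested cilia genes, of which 6 were higher and 4 lower. The list's median of 0.60 was 0.095 without anti-PD-1 replicate 1 and 0.18 with a minimum value of 50. Slpi, a secreted inhibitor of proteases, measured 178, 226, 62.1, 113 and 53.3 against 2917, 446, 1249.9, 237 and 1121 (log2 2.95, SE 0.64, adjusted p = 0.0287), a rise without overlap whose values with letrozole spread over more than 10-fold. Its relative Wfdc2, another secreted protease inhibitor, measured 5225, 8788, 7033, 6693 and 5089 against 12058, 11508, 13618, 7907 and 16162 (log2 0.89, adjusted p = 0.0325). The epithelial adhesion gene Epcam measured 25687, 22386, 19223, 18581 and 17037 against 32183, 25772, 38255, 24589.7 and 32137 (log2 0.57, adjusted p = 0.0324), and was the called member of 14 luminal genes, whose median was 0.057. Its groups overlapped through anti-PD-1 replicate 1 and letrozole + anti-PD-1 replicate 4. Krt8 (0.18, adjusted p = 0.672) and Krt18 (0.13, adjusted p = 0.682) were not called. These calls depended on single libraries: Foxj1 was lost under 6, Slpi under 8, Wfdc2 under 10 and Epcam under 9 of 26 alternatives, with highest adjusted p = 0.147, 0.189, 0.164 and 0.189, and all 4 when anti-PD-1 replicate 4 was left out.

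Lrrc8b, a subunit of volume-regulated anion channels, measured 1205, 1149, 1404, 1427 and 1494 against 2416, 1804, 2483, 2996 and 2134 (log2 0.81, adjusted p = 5.31e-04). Cavin2, a coat protein of caveolae, measured 1219.96, 442, 438, 439.7 and 664 against 1595, 1156, 1076, 1819.98 and 1643 (log2 1.28, adjusted p = 0.0142), and anti-PD-1 replicate 1 lay within the letrozole range. Its call was lost under 3 of 26 alternatives, among them leaving out anti-PD-1 replicate 4 (highest adjusted p = 0.0784). Cavin2 was the called member among 8 caveolar genes, 7 of them higher (median 0.41). Elovl7, which lengthens fatty acids, rose by 0.80 (adjusted p = 0.00495), the lysosomal peptidase gene Tpp1 by 0.71 (adjusted p = 0.0105), the death receptor gene Tnfrsf21 by 0.81 (adjusted p = 0.009), the phosphatase gene Ppm1l by 0.84 (adjusted p = 0.00609) and Bpgm, a red cell glycolytic enzyme, by 0.84 (adjusted p = 0.00802). Larger rises were called for Sytl2, a Rab27 effector of secretion (log2 1.78), the transmembrane gene Slitrk5 (1.28), Lysmd3 (1.18) and Rcbtb2 (1.15), with adjusted p-values from 0.00133 to 0.0355. Lysmd3 was called under all 26 alternatives, while Sytl2, Slitrk5 and Rcbtb2 lost the call under 8, 7 and 4 (highest adjusted p = 0.115, 0.136 and 0.0916), each of them without anti-PD-1 replicate 4 and without letrozole + anti-PD-1 replicate 5. The membrane-bound matrix metalloproteinase gene Mmp16 rose by 0.92 (adjusted p = 0.0399), but 14 of 26 alternatives gave no call (highest adjusted p = 0.196).

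Interferon and immune genes gave few calls but were mostly higher. Ifih1, the cytosolic sensor of double-stranded RNA, measured 1082, 1150.4, 1142, 1038 and 1721 without and 2263, 1913, 1886, 2226 and 2195 with letrozole (log2 0.79, adjusted p = 0.00138) and kept its call under all 26 alternatives. Irgm2, an interferon-induced GTPase, measured 777, 559.7, 976, 535 and 574 against 941, 1259, 1499.7, 1206 and 1291 (log2 0.88, adjusted p = 0.0123). Cd274, the gene of PD-L1, a ligand of PD-1, measured 21.2, 65.1, 123, 32.6 and 45.8 against 147, 151, 104, 152 and 143. The groups overlapped through anti-PD-1 replicate 3 and letrozole + anti-PD-1 replicate 3, and the rise of 1.51 (SE 0.35, adjusted p = 0.0405) lost its call under 17 of 26 alternatives (adjusted p up to 0.164). Pdcd1, the gene of PD-1, stayed at or under 30.2 in all 10 tumours (log2 1.40, SE 1.17, adjusted p = 0.642). C1s1, a protease of the complement cascade, measured 1743, 1816, 1773, 1271 and 1578 against 4059.5, 3529, 3981, 2369 and 4184 (log2 1.13, adjusted p = 0.0325). Its call was lost under 8 of 26 alternatives, 7 of them a single library left out (highest adjusted p = 0.17), and that of Irgm2 under 2, among them leaving out anti-PD-1 replicate 4 (highest adjusted p = 0.072).

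By list, 21 of 26 interferon gamma response genes were higher and 2 rose (Irgm2 and Cd274), with a median of 0.54. Of 23 type I interferon genes 18 were higher and 1 rose (Ifih1; median 0.40). Of all tested genes 53.9% were higher and the median was 0.030. The mean log2 level of the interferon gamma list ranged from 7.22 to 8.06 without and 7.39 to 8.66 with letrozole. For type I it was 5.78 to 6.99 and 6.22 to 7.12, and for MHC class I 12.36 to 12.59 and 12.53 to 12.84. For MHC class II it was 6.24 to 8.55 and 7.18 to 9.91. The ranges overlapped in each of these lists. Letrozole + anti-PD-1 replicate 3 was the lowest of its group except for MHC class I. MHC class I presentation had 13 of 16 members higher, 8 at an unadjusted p under 0.05, a median of 0.35 and 0 called by limma, 0 by edgeR and 4 by DESeq2. Its smallest p-values belonged to the peptide-loading genes Tapbp (log2 0.68, adjusted p = 0.0751) and Tap1 (0.37, adjusted p = 0.0813). MHC class II had 11 of 12 members higher (median 0.94, 2 at an unadjusted p under 0.05; limma, edgeR and DESeq2 called 0), among them H2-DMa at 197, 79.1, 286, 209 and 171 against 300.2, 397, 241, 281 and 377.

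In these bulk samples more cells of a type and more RNA per cell cannot be told apart. The mean log2 level of 20 macrophage and monocyte markers ranged from 6.83 to 8.38 without and 7.93 to 8.82 with letrozole, with 18 of 20 higher and 0 called by limma (5 at an unadjusted p under 0.05; 0 by edgeR and 0 by DESeq2). The mean of 17 T cell markers ranged from 2.47 to 4.31 without and 3.24 to 5.95 with it (12 higher, 0 called by each tool, 2 at an unadjusted p under 0.05), and that of 13 dendritic cell markers from 3.71 to 5.98 without and 4.70 to 6.73 with it (12 higher, 0 called by each tool, 1 unadjusted). These ranges overlapped. With a minimum value of 50 the T cell median of 0.87 became -0.14 and that of NK and cytotoxic cells, 0.71 over 6 tested genes, became -0.55. That filter removed members of both lists, so the medians are not over the same genes. The NK value of -0.55 is the change of the list's lowest member, while 5 of the 6 tested NK genes were higher. Of 7 tested granulocyte and mast cell genes 6 were lower and 1 higher (median -1.11, 0 called by each tool, 2 at an unadjusted p under 0.05), and this median was 0.21 without letrozole + anti-PD-1 libraries 1 and 3. Several defining lymphoid genes were at or near 0: Zap70, a T cell receptor kinase, measured 0, 0, 2.76, 0 and 5.47 against 6.96, 45.3, 1.55, 11.6 and 7.55, and the NK receptor gene Ncr1 0, 0, 0, 1.25 and 10.9 against 4.64, 42.8, 0, 0 and 5.66. Whether leukocyte content had a part in the interferon and Cd274 results was not tested.

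Chemokine genes split. Of 23 tested chemokines and cytokines 18 were higher and 0 rose, while 3 fell: the neighbouring genes Cxcl5 and Cxcl15, ligands that attract neutrophils or act in mucosal epithelium, and the receptor gene Il1rl1, which the list includes. Cxcl15 measured 436, 918, 299.6, 610.1 and 1000.1 against 126, 297, 9.28, 132 and 169 (log2 -2.61, adjusted p = 0.0324), with letrozole + anti-PD-1 replicate 3 far below the rest. Cxcl5 was near the detection limit, at 25.4, 9.30, 22.1, 12.5 and 13 against 0, 8.23, 0, 0 and 0.944 (log2 -3.20, adjusted p = 0.0204). Both calls were lost under 6 of 26 and 6 of 24 alternatives in which the gene was tested (highest adjusted p = 0.18 and 0.154). The list's median was 0.47.

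All 24 tested G2/M and mitosis genes were lower, against 46.1% of all tested genes, with a median of -0.34; limma, edgeR and DESeq2 each called 0 (5 at an unadjusted p under 0.05). The list's mean log2 level ranged from 10.54 to 10.88 without letrozole and from 10.02 to 10.87 with it. Letrozole + anti-PD-1 replicates 1 and 3, at 10.75 and 10.87, lay within the range without letrozole, and the other 3, at 10.02 to 10.07, below it. Mki67, the proliferation marker, measured 5119, 6524, 8445, 8234 and 9159 against 7794, 4129, 11274, 5119 and 5371, with letrozole + anti-PD-1 replicate 3 the highest of the 10 tumours (log2 -0.22, 95% interval -0.71 to 0.27, adjusted p = 0.727). Of 27 S phase and DNA replication genes 24 were lower and 1 fell, Cdt1, which licenses replication origins (median -0.18). Of 14 genes of cyclin D, Rb and cell cycle inhibitors 9 were higher (median 0.072) and of 13 genes of the IGF axis 7 were higher (median 0.08), with 0 called in either by limma, edgeR and DESeq2 (2 and 0 at an unadjusted p under 0.05). Cdt1 measured 1813, 1507, 1599, 1894 and 1529.9 against 948, 1262, 961, 1378 and 844 (log2 -0.65, adjusted p = 0.00898).

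All 24 ribosomal protein genes were lower, 21 of them at an unadjusted p under 0.05, with a median of -0.36. Limma called 1, Rpl13, at 18454, 14344, 15391, 15255 and 15263 against 9349, 13267, 10767, 11522 and 9878 (log2 -0.53, SE 0.12, adjusted p = 0.04); edgeR called 0 and DESeq2 3. The hypoxia response had 15 of 19 members lower and 2 fallen (median -0.26). Ddit4, which restrains mTOR signalling under stress, measured 6324, 4225, 3875, 6246 and 4007 against 2453, 2741, 3124, 2801 and 2645 (log2 -0.81, adjusted p = 0.00495). Kdm3a, which removes methyl groups from histone H3, measured 6574, 6368, 5167, 6152 and 6213 against 3407, 3968, 3631, 4464 and 3941 (log2 -0.65, adjusted p = 0.00609). Oxidative phosphorylation had 16 of 20 lower and 1 fallen, Cox4i1, a subunit of cytochrome oxidase (log2 -0.44, adjusted p = 0.0422; list median -0.16). The calls of Rpl13 and Cox4i1 were lost under 16 and 15 of 26 alternatives (highest adjusted p = 0.189 and 0.238).

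**Figure D3:**
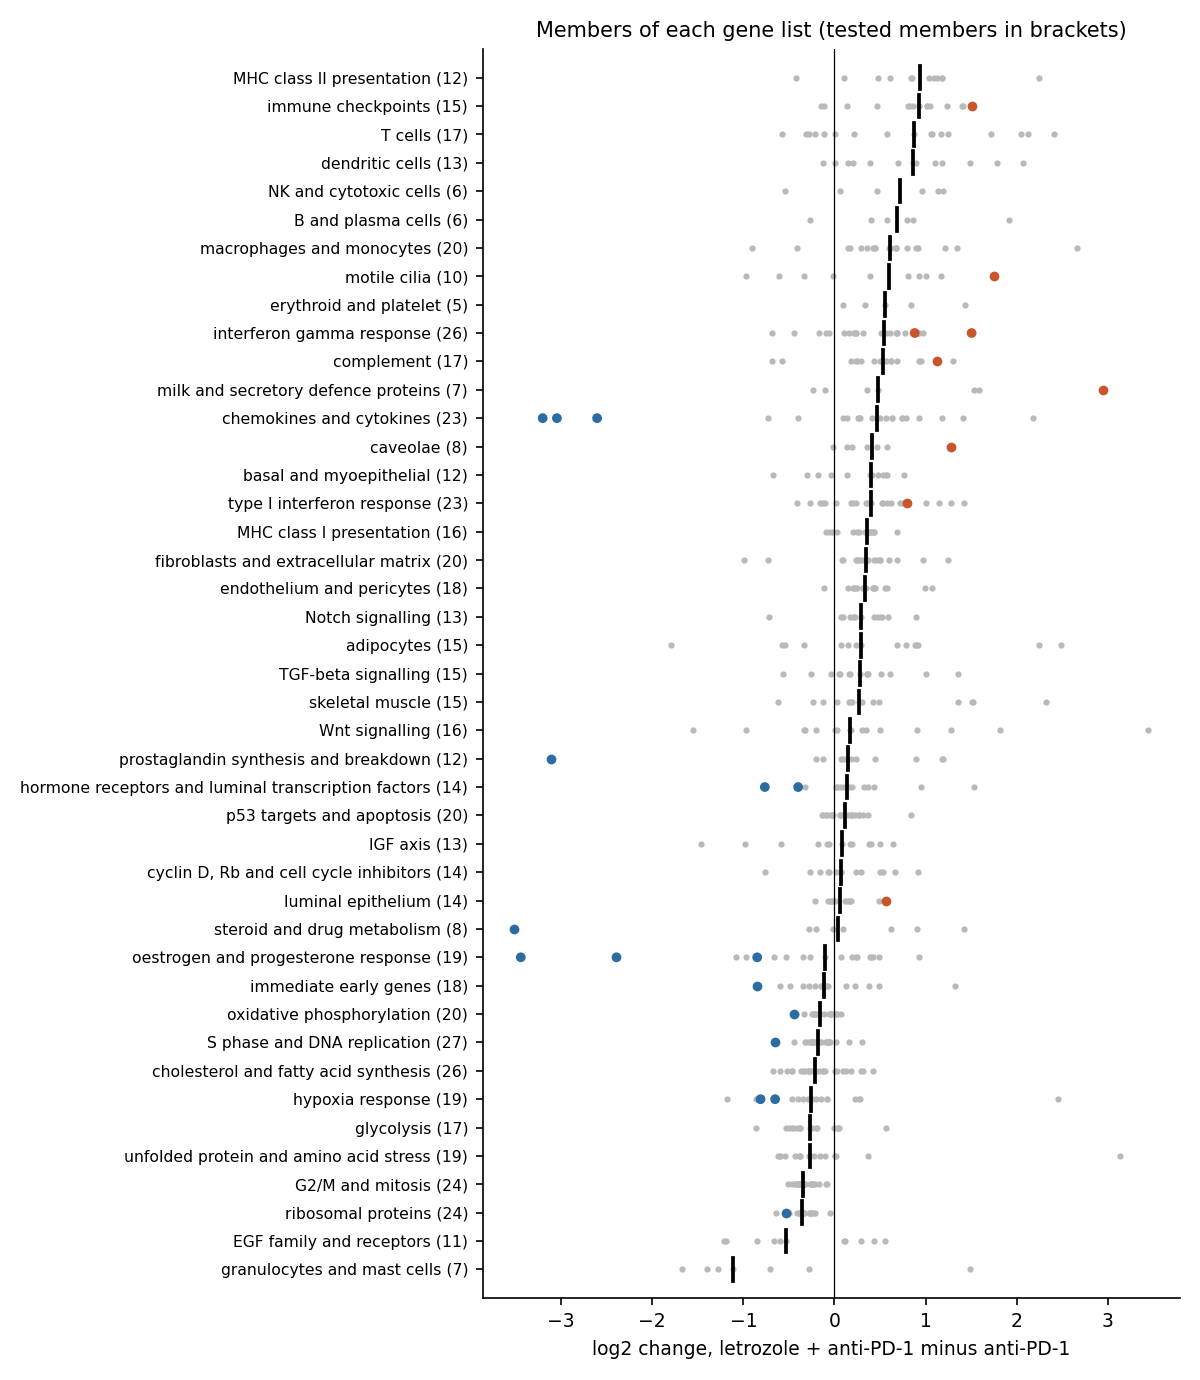
Log2 change (letrozole + anti-PD-1 minus anti-PD-1) of each tested member of 43 gene lists, sorted by the list median (black bar); grey points were not called, blue fell and orange rose. Ribosomal and mitotic genes lie wholly left of 0, and most immune lists have medians above 0.5 with few or no called members.

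In 25 of the 43 lists limma called 0 members; values at an unadjusted p under 0.05 are given as "unadjusted". Glycolysis genes had 13 of 17 lower and 7 at an unadjusted p under 0.05 (median -0.27), led by Hk2, which encodes hexokinase, at 1616, 1808, 1342, 1944 and 1404 against 750.01, 755, 893, 1156 and 925 (log2 -0.86, adjusted p = 0.0911); edgeR called 0 and DESeq2 1. Cholesterol and fatty acid synthesis had 18 of 26 lower (median -0.21, 7 unadjusted, edgeR 0 and DESeq2 1), led by Lss, lanosterol synthase (log2 -0.68, adjusted p = 0.0679). Among 11 genes of the EGF family the growth factor gene Btc measured 1728, 2447, 3362, 3285 and 1608 against 1274, 1446, 625, 726 and 1351 (log2 -1.21, adjusted p = 0.0903) and the receptor gene Erbb2 was higher by 0.29 (adjusted p = 0.138). Notch signalling had 12 of 13 members higher (median 0.30, 4 unadjusted), with Notch2 at 0.46 (adjusted p = 0.0933). TGF-beta signalling had 12 of 15 higher (median 0.28, 3 unadjusted), with Smad3 at 0.37 (adjusted p = 0.0993). In Wnt signalling Rnf43, a ligase that removes Wnt receptors, measured 2.12, 17.1, 8.28, 0 and 7.52 against 199, 35.4, 186, 21.8 and 20.8: replicates 1 and 3 with letrozole were the highest of the 10 tumours (log2 3.44, adjusted p = 0.0603). In the EGF, Notch, TGF-beta and Wnt lists edgeR called 0 members, and DESeq2 called 1, 1, 1 and 2. Among those were Btc (DESeq2 adjusted p = 0.0318), Notch2, Smad3 (0.0477) and Rnf43 (0.00125).

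Non-epithelial markers varied between tumours of a group. Fibroblast and matrix genes had 18 of 20 higher and 0 at an unadjusted p under 0.05. Their median of 0.35 became -0.10 without anti-PD-1 replicate 2, whose list level was 8.12 against 9.72 to 11.00 in the other 4 of its group. Endothelial and pericyte genes had 17 of 18 higher (median 0.33, 1 unadjusted). The mast cell protease gene Tpsb2 measured 121, 121, 243, 188 and 383 against 25.5, 380.1, 6.19, 103 and 102 (adjusted p = 0.358). The mean log2 level of 15 skeletal muscle genes was 7.63 in letrozole + anti-PD-1 replicate 2 and at most 4.22 in the other 9 tumours. The creatine kinase gene Ckm measured 149.7 in that tumour and at most 27.1 elsewhere in the comparison. The number of called genes without that library was 171, 155 of them among the 213.

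The same treatment was set beside its effect in the other 10 tumours, letrozole against vehicle in mice without antibody. The group means of both comparisons share no sample. Both sets of p-values came from 1 fit over all 20 libraries, so they share each gene's estimate of spread and the calls are not independent. Of the 118 genes that fell here 118 were lower there and 52 fell, and of the 95 that rose here 93 were higher there and 38 rose. There, 189 of 19877 genes (0.951%) were called, 80 risen (0.402%) and 109 fallen (0.548%), so 42.3% of the 213 genes against 0.951% of all were called in the other arm. All tested genes had the same sign in both arms in 69.6% of cases. The median change of the fallen genes was -1.12 with and -0.79 without antibody, and that of the risen genes 0.73 and 0.57. The change was larger with antibody for 165 of the 213 genes called here, but for 42 of the 189 called there.

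Limma called 0 of 19877 genes for a difference of the letrozole effect between arms (393, or 1.98%, at an unadjusted p under 0.05; edgeR called 0 and DESeq2 4, or 0.0201%), and the smallest adjusted p was 1.00. Among the 213 genes, 11 had an unadjusted p under 0.05 for that difference, and the 5 with the smallest follow. Serpini1, the protease inhibitor neuroserpin, measured 0, 0, 5.52, 7.52 and 13 against 47.5, 23, 58.8, 42.2 and 100.01 with antibody (log2 3.72) and changed by 0.81 without it. Cxcl3, a neutrophil chemokine gene, measured 29.7, 18.6, 27.6, 27.6 and 23.2 against 0, 0, 10.8, 1.46 and 0 (log2 -3.73, against -1.28 without antibody). Ccdc175 rose by 2.65 (without antibody 0.10), the predicted gene Gm43569 by 2.93 (-0.42) and Fam219b by 0.53 (-0.049). Their calls were lost under 6 of 24, 13 of 24 and 14 of 26 alternatives (highest adjusted p = 0.175, 0.22 and 0.189). Pgr (-3.44 and -3.54), Kcne2 (-5.53 and -5.67) and Slc5a3 (-2.11 and -2.11) had nearly the same change in both arms.

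**Figure D4:**
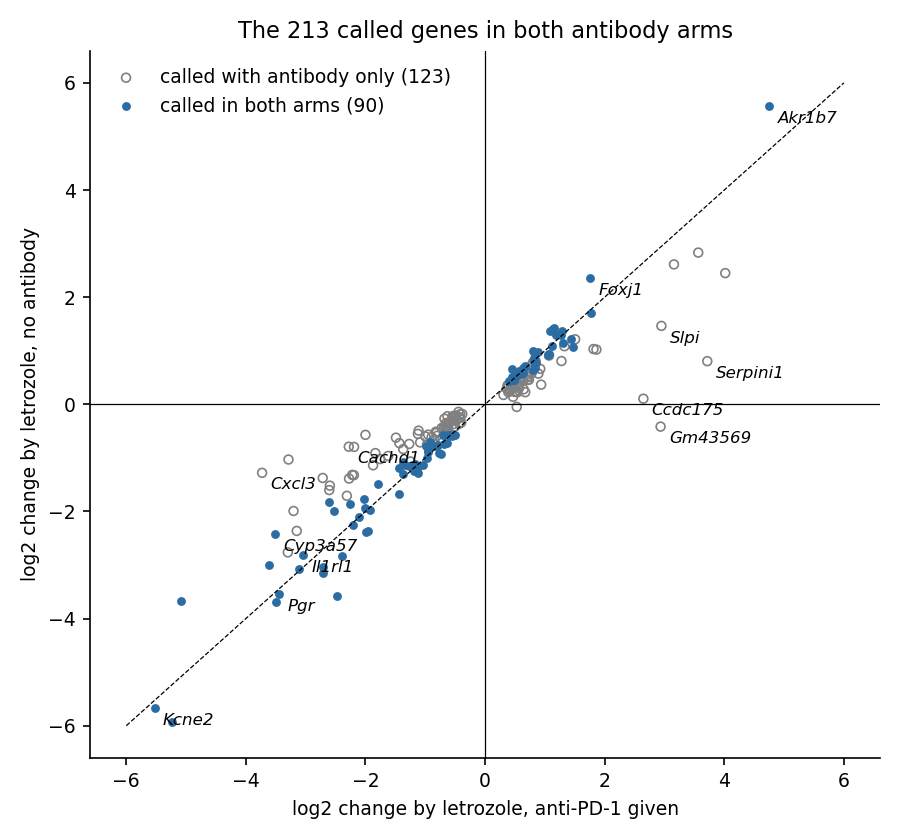
Log2 change by letrozole of the 213 called genes in mice given anti-PD-1 (horizontal) and in mice without antibody (vertical); filled points (90) were called in both arms, open points (123) with antibody only, and the dashed line marks equal change. Only 2 genes lie in the quadrants of opposite sign.

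The number of fallen genes per chromosome ran from 0 on chromosome 17 to 18 on chromosome 8. Chromosome 10 held 914 tested genes (4.60%) and 13 of the 118 fallen genes (11.0%); 12 of the 13 were still called with each library centred on its chromosome levels, 6 without letrozole + anti-PD-1 libraries 1 and 3, and without antibody 11 genes of the chromosome fell. Chromosome 8 held 1024 of 19877 tested genes (5.15%) and 18 of the 118 fallen genes (15.3%), among them Cdt1, Rpl13, Cox4i1, Hpgd and Slc5a5, so that 1.76% of its genes fell against 0.594% of all. Without antibody 7 of its genes fell. Its moderately to highly expressed protein-coding genes (596 with a mean above 100) had a median log2 change of -0.16, and 76.5% were lower. Their median level relative to all such genes was 0.0046, 0.037, 0.045, 0.095 and 0.15 in the 5 anti-PD-1 tumours and -0.16, 0.021, -0.28, 0.027 and -0.087 in the 5 letrozole + anti-PD-1 tumours. Replicates 3 and 1 of the latter were the lowest of the 10, while replicates 2 and 4 lay among the tumours without letrozole. The difference of group means was -0.16 (exact two-sided permutation test over 10 tumours, p = 0.0317; adjusted over 20 chromosomes p = 0.635; smallest possible p = 0.00794).

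In replicates 3 and 1 the low level ran along the whole chromosome. In 14 successive blocks of 40 such genes the median lay from -0.35 to -0.22 in replicate 3 and from -0.23 to -0.10 in replicate 1, but from -0.069 to 0.10 in replicate 4. Chromosome 18, with 6 fallen and 0 risen genes among 546, showed the same 2 tumours lowest, at -0.21 and -0.28 against -0.0054 to 0.018 in the other 3. The cause of these levels was not tested. With every library centred on the level of each chromosome, an alternative chosen after seeing the data, 196 genes were called (89 risen and 107 fallen), 175 of them among the 213. Of the 18 fallen genes of chromosome 8, 5 remained called, among them Hpgd (adjusted p = 0.00348), Slc5a5 (0.0248), Cdt1 (0.0326) and Dus2 (0.0447). Rpl13 (0.183) and Cox4i1 (0.169) did not. Without both letrozole + anti-PD-1 libraries 1 and 3 there were 68 calls (18 risen and 50 fallen), 55 of them among the 213, from 3 tumours against 5. Of the 18 fallen genes of chromosome 8, 1 was then still called, Hpgd (adjusted p = 0.0333). Slc5a5 (0.0924), Cdt1 (0.0988) and Dus2 (0.165) were not.

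**Figure D5:**
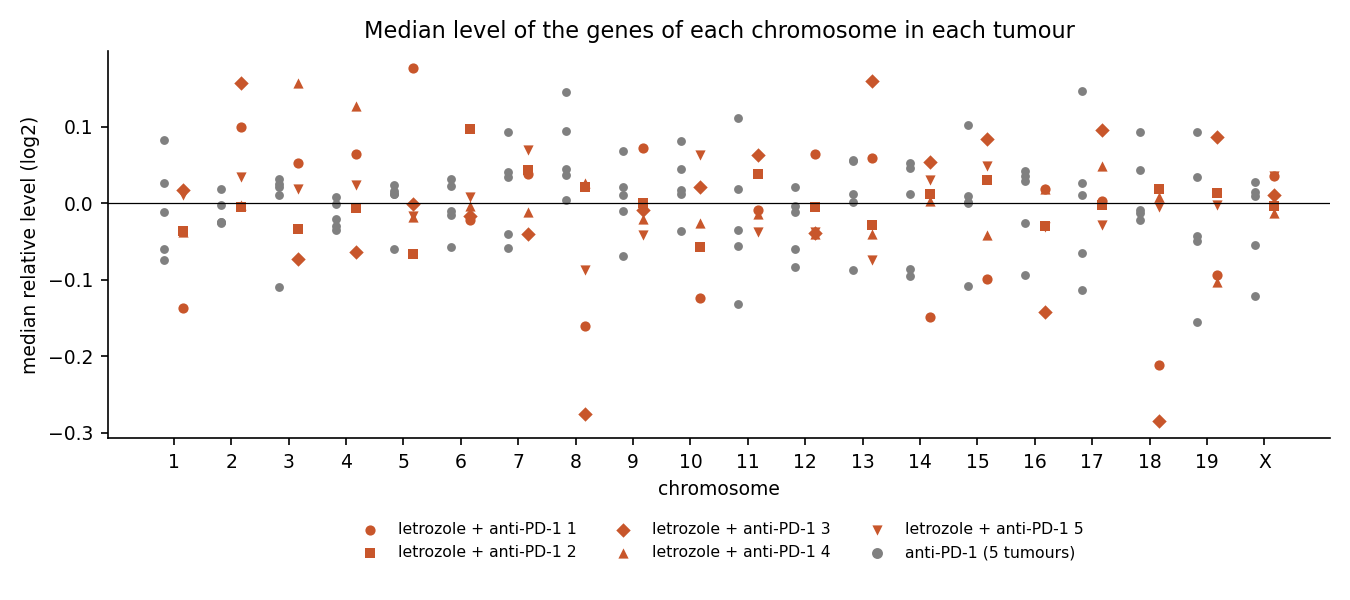
Median log2 level of protein-coding genes with a mean above 100, by chromosome and tumour, relative to all such genes; grey points are the 5 anti-PD-1 tumours and orange symbols the 5 letrozole + anti-PD-1 tumours. On chromosomes 8 and 18 replicates 3 (diamond) and 1 (circle) lie below the other tumours.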

How the data were processed

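RNA of 20 tumours was sequenced; per the submitters' processing notes, reads were aligned with STAR 2.7.10a to GRCm39 (mm39) and DESeq2 was used. Counter, annotation release, strand use and filters were not given in the sources used here. Values for 127442 transcripts were deposited by the authors as 1 table of normalised counts, a signal that gave whole reads in 100% of values (tolerance 0.001) once multiplied by a size factor of 0.472 to 1.46 per library. Transcripts were named through GENCODE gene models of another build (93.3% named; the rest held 1.79 to 2.76% of reads), so no coordinates of genes are given, and 50 genes sharing a symbol were left out. Because strand use is not known, genes sharing exon bases with another gene are uncertain, among them Gm43569 (38.5% of its exon bases), Tapbp (29%), Mrps6 (19.9%), C1s1 (18.4%), Cd274 (14.1%), Cox4i1 (9.94%), Rpl13 (5.97%), Irx3 (4.49%) and Gpr155 (4.28%).

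Tests used log2(value + 1) in limma 3.58.1 (R 4.3.3), with trend, a mean for each of 4 groups over all 20 libraries and 16 residual degrees of freedom. P-values are two-sided and Benjamini-Hochberg adjusted over 19877 genes. Fold changes are on this log2 scale, which understates low genes. Each gene's transcript with the most reads was used. edgeR 4.0.16 and DESeq2 1.42.0 were run on the recovered reads as alternatives only, and the test was also run on simulated counts. Those counts were drawn independently for each gene, with no outlying library or chromosome-wide shift. They therefore do not address how the calls depend on single libraries. The members and lists were chosen with earlier results of these data known. Named genes were a panel of 10, up to 14 per direction by largest change and 8 by smallest p among called genes above the median level (predicted genes left out), called members of 43 lists (or the 2 of smallest p), and the 5 called genes of smallest p for the difference between arms. The design text calls the 5 samples of a group biological replicates. Numbers were not treated as pairs. Alternatives covered the pseudocount, filter, scaling, weights, tool, transcript choice and each library.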

Additional observations from a re-analysis of the deposited data

Results flagged for a closer look

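In 13 of 278 groups of 5 tumours examined, 1 tumour lay far from the other 4. Chance gives about 1 in 20, close to the share found, so the flags below are given as values only. In letrozole + anti-PD-1 replicate 3, Cd274 measured 104 (143 to 152 in the other 4), Cxcl15 9.28 (126 to 297) and Cyp3a57 19.3 (78.8 to 136). In anti-PD-1 replicate 1, Cyp3a57 measured 275 (812 to 1224), Elovl7 1038 (1230.5 to 1278), Cox4i1 9499 (7561 to 8076), Rpl13 18454 (14344.5 to 15391) and the dendritic cell receptor gene Xcr1 0 (12.4 to 33.1), and the 10 most abundant genes took 12.9% of reads (5.96 to 7.75%). Ifih1 was high in anti-PD-1 replicate 5, at 1721 (1038 to 1150.4), a library with 31393828 reads against at most 17953611 in the others of its group. Kdm3a was low in anti-PD-1 replicate 3, at 5167 (6152 to 6574), and Mmp16 in letrozole + anti-PD-1 replicate 2, at 1087 (2140.2 to 2710.2).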

How the results depend on the processing

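The 213 calls became 60 (23 risen and 37 fallen) when the 10 tumours were fitted alone, with 8 in place of 16 residual degrees of freedom, and 532 (243 and 289) with DESeq2 on recovered reads; the cause was not tested. Leaving out each library in turn gave 72 to 255 calls. Without letrozole + anti-PD-1 libraries 1 and 3, chosen after seeing the data, there were 68. Counts ran from 153 to 295 under the other scalings, filters, weights, tools and transcript sums. For the difference between arms, DESeq2 called 4 where limma called 0. Of 61 named called genes, 25 were called under all 26 alternatives and 36 lost the call under at least 1. Of 55 named genes not called, 14 were called under at least 1. Esr1, near 0, changed sign to -0.019 with array weights, to -0.055 without both libraries that stand apart, and ranged from -0.065 to 0.11 with each library left out in turn; Dcn changed to 0.089 without libraries 1 and 3. Same-numbered tumours correlated at -0.24 to 0.13, over 0.1 in 1 of 5 pairs, and 1 of 5 anti-PD-1 libraries correlated best with its own number. With the replicate block 236 genes were called (98 risen and 138 fallen). The shallowest library limits low genes, and most anti-PD-1 libraries were shallower than every letrozole + anti-PD-1 library.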

Other observations

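Called genes often lay beside each other. Counting called genes of one direction with at most 2 tested genes between them, 40 of the 118 fallen genes stood in 16 runs and 20 of the 95 risen genes in 9 runs. Of 603 tested genes within that distance of a fallen gene 6.63% also fell, against 0.594% of all, and of 529 as close to a risen gene 3.78% also rose, against 0.478%. Without predicted genes and genes that share exon bases, the shares were 4.20% of 429 (0.887% of this pool fell) and 1.66% of 362 (0.690% rose). The genes below were chosen after their values were seen. Beside Pgr on chromosome 9, the cation channel gene Trpc6 fell by 1.93 (adjusted p = 0.0142), and the predicted genes Gm32014 and Gm16485 by 5.23 and 3.50. Beside Aqp5 on chromosome 15, Faim2 fell by 1.99 (adjusted p = 0.0130) and the acid-sensing channel gene Asic1 by 1.44 (adjusted p = 0.0355). On chromosome 5 the chemokine genes Cxcl5, Cxcl3 and Cxcl15 fell by 3.20, 3.73 and 2.61. On chromosome 16, Mrps6, the predicted gene Gm49711, Slc5a3 and Kcne2 stood in 1 run and fell by 1.13, 1.12, 2.11 and 5.53. Gm49711 shares 35.9% and Slc5a3 1.46% of its exon bases with Mrps6. On chromosome 6 the aldo-keto reductase gene Akr1b7 rose by 4.75 (adjusted p = 0.0117) beside Bpgm. Akr1b7 shares 27.2% of its exon bases with Gm13857, so its value is uncertain. On the same chromosome Met, the receptor of hepatocyte growth factor, rose by 0.56 beside Tes (0.72).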
